A study of Mus musculus with 3 samples.

Results

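The BCL2 family apoptosis regulators were followed in myotubes, the multinucleated muscle cells that the mouse line C2C12 forms in a dish, as 10 genes of the 24401 loci in the deposited table. The members were chosen by symbol: the guardians Bcl2, Bcl2l1 and Mcl1, the effectors Bax and Bak1, and the BH3-only genes Bcl2l11, Bid, Bad, Bbc3 and Pmaip1. All 10 had exactly 1 locus in the table, and all 10 had a mean of 1 FPKM or more over the libraries. FPKM counts fragments relative to transcript length and library size, so within a library genes can be compared with each other. The labels list the cell type as myoblast, but per the protocol the cells had been differentiated for 72 hours in 2% horse serum with 1 µg/ml insulin, and were then held for 24 hours in 1 of 3 media. The control library came from myotubes in DMEM, with no serum content stated. The conditioned media library came from myotubes given medium exposed for 24 hours to S2-013, a pancreatic cancer line of human origin grown with 10% fetal bovine serum. In the resveratrol library, 50 µM resveratrol, a plant polyphenol, was present in such conditioned medium, and a culture with resveratrol but no conditioned medium was not analysed here. Each group held 1 library of a single cell line, so no value has a replicate error, no test of the conditions could be made, and depth is unknown.

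BCL2 proteins decide whether the outer mitochondrial membrane is permeabilised, the step that releases cytochrome c and starts caspase activation. Guardians hold the effectors BAX and BAK in check, and BH3-only proteins, induced or activated by stress, bind the guardians or the effectors directly and tip the balance toward pore formation. Myotubes leave the cell cycle, and in muscle the pathway is studied in wasting, in denervation and in the loss of myonuclei. BIM, encoded by Bcl2l11, and PUMA, encoded by Bbc3, are known targets of FOXO transcription factors, which also drive muscle atrophy genes.

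The stretches before the start sites of Bcl2l11, Bbc3 and Bid are shown because these 3 BH3-only genes had the widest spread of FPKM across the libraries. They are RefSeq sequences of build GRCm38.p6, the same assembly as mm10, written 5′ to 3′ on the gene's strand and clear of GENCODE M21 exons. Bcl2l11 is given for chr2:128125788-128126037 on the plus strand and Bbc3 for chr7:16310011-16310260 on the plus strand, before an inner RefSeq start and within the first intron of a longer GENCODE transcript. Bid is given for chr6:120916854-120917074 on the minus strand. Capitals mark the FOXO core GTAAACA, on either strand, in the first and the second, and the GC box GGGCGG in the last.
Bcl2l11: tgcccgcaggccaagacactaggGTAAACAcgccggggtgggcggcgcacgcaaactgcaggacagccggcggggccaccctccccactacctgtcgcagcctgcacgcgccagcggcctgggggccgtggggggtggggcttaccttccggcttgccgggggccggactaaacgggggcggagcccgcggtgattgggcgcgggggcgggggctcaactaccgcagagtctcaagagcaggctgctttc
Bbc3: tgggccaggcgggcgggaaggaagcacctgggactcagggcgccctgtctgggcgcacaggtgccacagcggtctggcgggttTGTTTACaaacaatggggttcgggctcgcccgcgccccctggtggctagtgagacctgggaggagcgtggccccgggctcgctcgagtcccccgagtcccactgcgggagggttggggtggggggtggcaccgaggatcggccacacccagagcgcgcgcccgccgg
Bid: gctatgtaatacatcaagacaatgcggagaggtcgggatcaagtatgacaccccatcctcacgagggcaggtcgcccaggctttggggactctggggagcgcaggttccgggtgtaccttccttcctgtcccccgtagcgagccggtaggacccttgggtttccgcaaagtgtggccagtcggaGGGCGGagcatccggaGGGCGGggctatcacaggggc

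RefSeq windows of 250 bases before a start were held for 9 members, 15 windows in all. The FOXO core GTAAACA was found in 2 of the 15 windows, those of Bcl2l11 and Bbc3 printed above, against 3.17% of 32851 windows of all genes. It lay 227 bases before the Bcl2l11 start and 167 bases before the inner Bbc3 start. The C/EBP-ATF composite TGATGNAA was found in 0 member windows and in 3.45% of all windows, and the E-box CACGTG in 2 member windows, of Bax and Bbc3, and in 6.02% of all. The GC box GGGCGG was in 10 member windows and in 32.7% of all. Both strands were searched, no match in a member's window overlapped a match of another motif, and the motifs were chosen after the sequences had been seen. A match describes letters and is no evidence of binding.

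The culture carried the marks of myotubes. The 9 measured myotube markers, among them Myog and Acta1, summed to 4880 FPKM in control, against 4290 in conditioned media and 6188 when resveratrol was added. Acta1 and Mylpf led that sum. For resveratrol over conditioned media, 7 markers had ratios above 0 and 2 below. The 2 were Ckm (60.8, 56.3 and 43.2 FPKM in the same order) and Atp2a1 (117, 128 and 113 FPKM). Markers of proliferating cells were also present, with the 10 genes summing to 254, 325 and 63.4 FPKM in that order. Of 5 leukocyte markers, 4 were listed at 0 in all libraries, Ptprc among them, and all 4 endothelial markers and 5 of 6 epithelial markers had a mean below 1 FPKM. Undifferentiated myoblast and reserve cell markers summed to 166, 218 and 247 FPKM over 5 genes, a sum led by Sdc4 at 80.6, 117 and 174 FPKM. Of the 4 with a mean of 1 FPKM or more, 3 were lower with resveratrol than in conditioned media, with a median log2 ratio of -0.60 over the 4. Notch3 (18.0, 25.7 and 12.1 FPKM) and Myf5 (10.9, 9.23 and 2.69 FPKM) were lower by a log2 ratio of -1 or less. In bulk RNA, fewer cells of a type and less RNA per cell cannot be told apart.

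Among the 10 members, the widest ranges over the libraries were those of the BH3-only genes Bcl2l11, Bid and Bbc3. Each triple of FPKM below runs from control through conditioned media to resveratrol in conditioned media. Log2 ratios were taken after 1 FPKM was added to both values, so those of low genes are understated. Bcl2l11, which encodes BIM and lies at chromosome 2, positions 128126038 to 128162547 of mm10, stood at 3.38, 6.98 and 14.8 FPKM. It was lowest in control and highest with resveratrol, 4.38-fold apart, with log2 ratios of 0.86 for conditioned media over control, 0.99 for resveratrol over conditioned media and 1.85 for resveratrol over control. Only 61 of 11858 loci with a mean of 1 FPKM or more (0.514%) had a higher ratio in the last comparison. The authors' deposited table called Bcl2l11 higher in all 3 comparisons, each with q = 0.000148.

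Bid took the opposite course. The gene encodes the BH3-only protein that caspase 8 cleaves, and so links death receptors to mitochondria. At chromosome 6, positions 120893119 to 120916849, it stood at 30.9, 21.3 and 8.55 FPKM, highest in control and lowest with resveratrol, 3.62-fold apart. Its log2 ratios were -0.52, -1.22 and -1.74 in the order of comparisons used for Bcl2l11, and 107 loci (0.902%) lay lower in the last. The authors' deposited table called it lower in all 3, each with q = 0.000148. Proliferating cell markers moved beside it under resveratrol, with 10 of 10 lower and 9 of 10 by a log2 ratio of -1 or less against conditioned media, whereas 10 of 10 had ratios above 0 in conditioned media over control, where Bid was lower. The part of these cells in the Bid values was not tested. In GENCODE M21 the Bid span also holds Gm44260 on the same strand and the processed pseudogene Gm17812 on the other. Reads of the shared stretches cannot be assigned between them and Bid.

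Bbc3, which encodes PUMA, stood at 4.92, 10.1 and 5.88 FPKM, so that its highest value was in conditioned media and the resveratrol library lay near control. Its log2 ratios were 0.91 for conditioned media over control, -0.69 for resveratrol over conditioned media and 0.22 for resveratrol over control. The authors' deposited table called the first and the second with q = 0.000148 and did not call the last (q = 0.183). Pmaip1, which encodes NOXA, a partner of MCL1, was also highest in conditioned media, at 23.2, 29.0 and 19.0 FPKM, but was lowest with resveratrol, where Bbc3 was lowest in control. Its log2 ratios were 0.31, -0.59 and -0.27. Bad, whose protein is kept inactive by AKT phosphorylation, stood at 31.2, 29.3 and 26.3 FPKM, within a 1.19-fold range, and the authors' deposited table called it in 0 of 3 comparisons. Bad shares its span in the table with Gpr137, at 14.9, 14.3 and 11.8 FPKM on the other strand, and since the strand setting is not given, reads of the overlapping ends cannot be assigned between them.

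**Figure D1:**
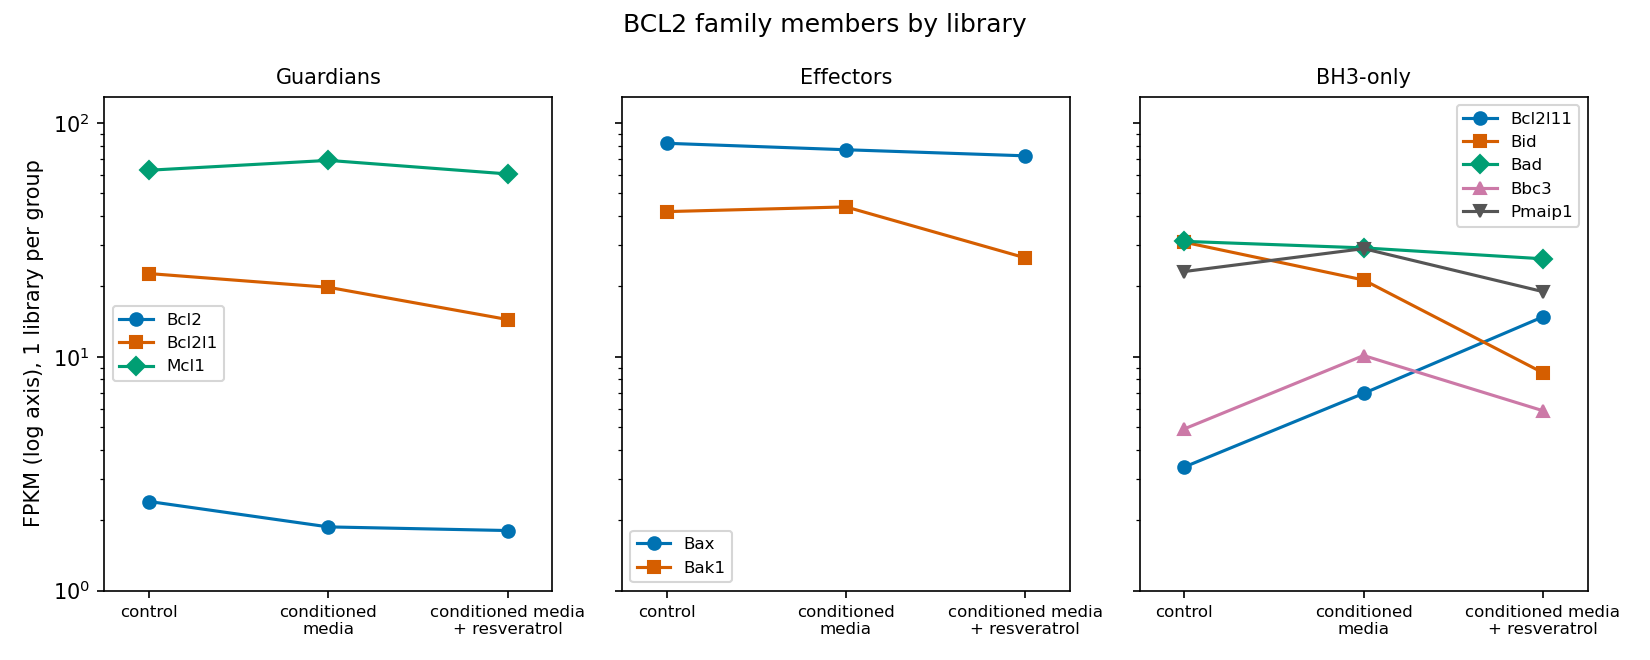
FPKM of the 10 BCL2 family members (log axis) in the control, conditioned media and resveratrol libraries, 1 point per library, grouped as guardians, effectors and BH3-only genes. Bcl2l11 goes from 3.38 to 14.8 FPKM while Bid goes from 30.9 to 8.55 FPKM, and their lines cross between conditioned media and resveratrol.

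Among the guardian members, Mcl1 was the most abundant and Bcl2 the least in every library. Mcl1 encodes a short-lived guardian, and stood at 62.9, 69.3 and 60.6 FPKM, a 1.14-fold range. Bcl2l1, which encodes BCL-XL, stood at 22.7, 19.8 and 14.4 FPKM, lowest with resveratrol. Its log2 ratios were -0.19, -0.43 and -0.62, and the authors' deposited table called it lower in all 3 comparisons (q = 0.0106, 0.000148 and 0.000148). Bcl2 stood at 2.40, 1.87 and 1.81 FPKM, and the authors did not test it between the conditioned media libraries. Bcl2 was called lower against control with q = 0.0470 for conditioned media and q = 0.0241 with resveratrol in the authors' deposited table. The Bcl2 span also holds the microRNA gene Mir3473f, listed at 0 in all libraries, and an antisense gene in GENCODE M21. The Bcl2l1 span is shared with Cox4i2, which stayed at or below 0.104 FPKM.

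The effectors differed from each other. Bax, whose protein moves from the cytosol to mitochondria, was the highest member in every library, at 82.0, 76.9 and 72.5 FPKM, a 1.13-fold range. GENCODE M21 places the gene Gm45808 on the same strand over the start of Bax, and reads of the shared stretch cannot be assigned between them. Bak1, whose protein sits in the mitochondrial membrane, stood at 41.8, 43.8 and 26.5 FPKM, with the resveratrol library below the other two. The authors' deposited table called Bak1 lower with resveratrol against conditioned media (log2 ratio -0.70, q = 0.000148) and did not call it between conditioned media and control (q = 0.310). Ggnbp1 shares the Bak1 span and had at most 0.837 FPKM.

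The order of levels changed mainly through Bcl2l11 and Bid. From highest to lowest, control ran Bax, Mcl1, Bak1, Bad, Bid, Pmaip1, Bcl2l1, Bbc3, Bcl2l11 and Bcl2. Bid was ranked 5 in control, 6 after conditioned medium and 8 after resveratrol, while Bcl2l11 was ranked 9, 9 and 6. Bax, Mcl1, Bak1 and Bad kept ranks 1 to 4, and Bcl2 rank 10, in all 3 libraries. Some neighbours stood close, such as Bad and Bid in control at 31.2 and 30.9 FPKM and Bak1 and Bad with resveratrol at 26.5 and 26.3 FPKM, and without replicates their order cannot be judged.

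The first comparison asks how the family stood after cancer cell conditioned medium. By a size rule of an absolute log2 ratio of 1 or more with a mean of 1 FPKM or more, 0 of 10 members were higher and 0 lower, where 1.98% of all 11858 loci were higher and 0.751% lower. Bbc3 and Bcl2l11, at log2 ratios of 0.91 and 0.86, came nearest, and their FPKM differed by 2.06-fold each. The median log2 ratio of the members was -0.012, beside -0.011 for all loci, with 5 ratios above 0 and 5 below. The authors' deposited table called 4 members higher (Bcl2l11, Bbc3, Pmaip1 and Mcl1) and 3 lower (Bid, Bcl2l1 and Bcl2), beside 25.8% of tested loci called higher and 29.9% called lower. The signs of Bax, Bad, Bak1 and Bcl2l1, all with ratios between -0.19 and 0.07, turned under a rescaling between libraries, which moved the median of all loci to as much as 0.14.

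The second comparison asks what resveratrol added to conditioned medium. By the size rule 1 of 10 members, Bid, was lower and 0 were higher, where 4.97% of all loci were lower and 1.53% higher. Bcl2l11 missed the rule by little, with a log2 ratio of 0.99 and a 2.12-fold difference in FPKM. It was the only member with a ratio above 0, and the other 9 had ratios from -1.22 for Bid to -0.033 for Bcl2. The median of all 10 members was -0.31, beside 0.025 for all loci. The authors' deposited table called 1 of 9 tested members higher and 6 lower (Bid, Bbc3, Bak1, Pmaip1, Bcl2l1 and Mcl1), beside 34.1% of tested loci called higher and 29.5% lower. The proliferating cell markers had a median of -2.33 in this comparison, and their part in the members' values was not tested. The first and the second comparison both use the conditioned media library, so a value that is high there, as for Bbc3 and Pmaip1, enters them with opposite sign.

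Resveratrol in conditioned medium against control gave 1 member higher by the size rule, Bcl2l11, and 1 lower, Bid, where 3.60% of loci were higher and 5.25% lower. Of all loci past the rule 40.7% were higher, a share that became 61.3% after FPKM were rescaled to TPM and 28.4% when loci of 200 bases or less were left out of that rescaling. The calls of Bcl2l11 and Bid were the same under both. The members had a median of -0.26, beside 0.0002 for all loci, and 8 of 10 ratios were below 0, of which those of Bax and Mcl1 turned sign under a rescaling. The authors' deposited table called 1 member higher and 6 lower (Bid, Bcl2l1, Bak1, Bcl2, Pmaip1 and Bax), beside 34.1% of tested loci in each direction.

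**Figure D2:**
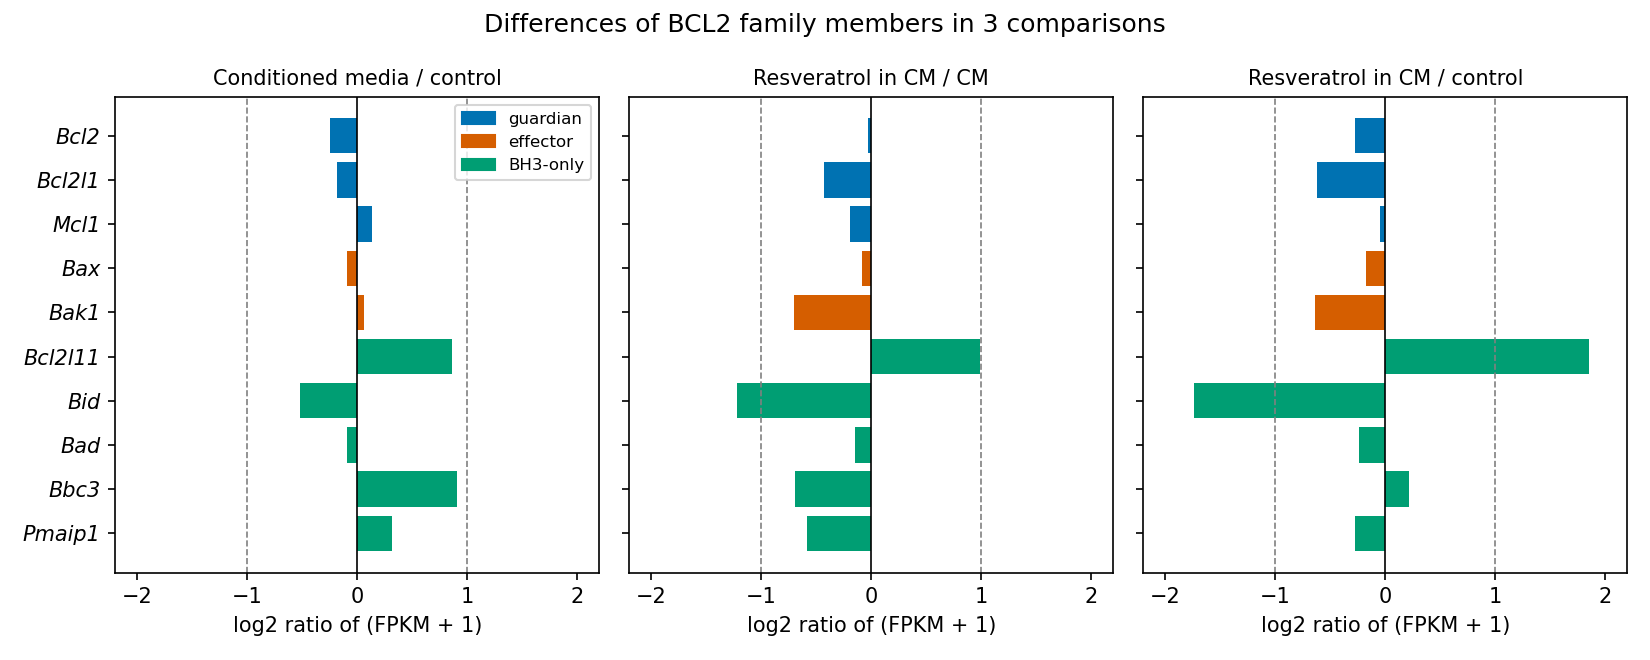
Log2 ratios of (FPKM + 1) for each member in the comparisons of conditioned media (CM) over control, resveratrol in CM over CM, and resveratrol in CM over control, with dashed lines at -1 and 1. Bcl2l11 lies to the right of 0 in every panel (0.86, 0.99 and 1.85) and Bid to the left (-0.52, -1.22 and -1.74), while Bbc3 is to the right in the first panel and to the left in the second.

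**Figure D3:**
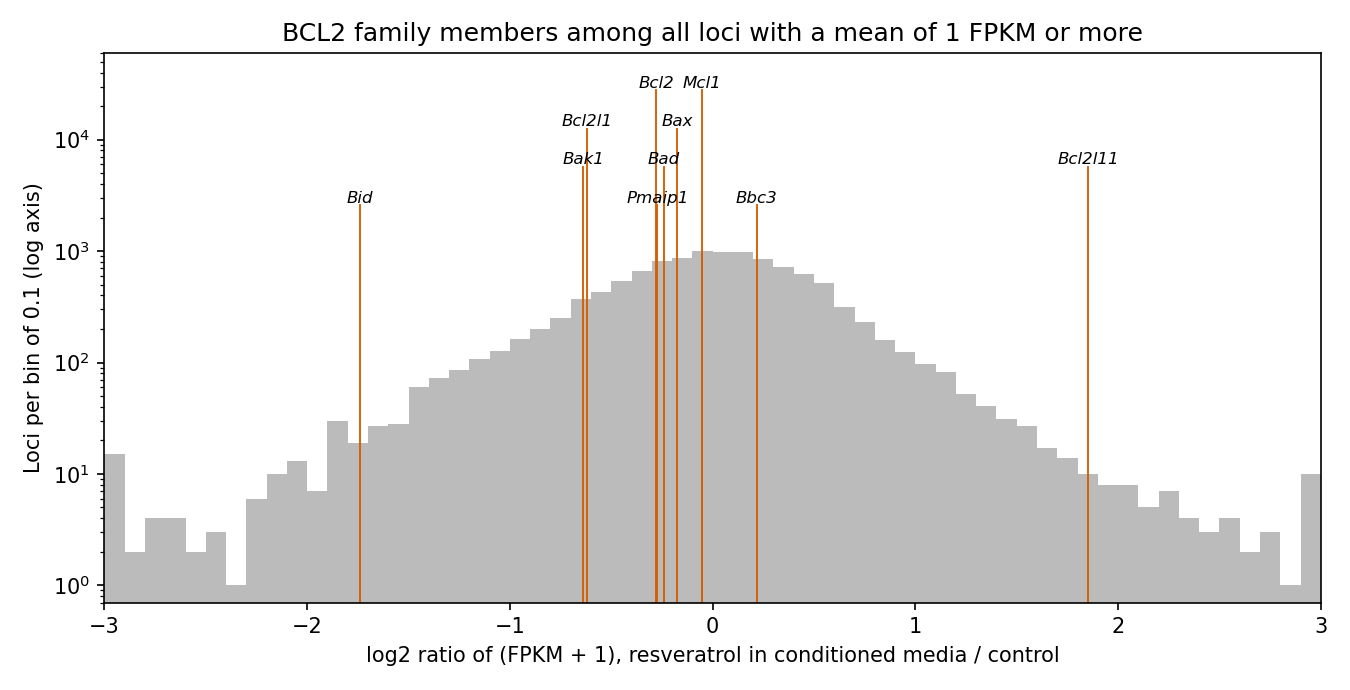
Number of loci (log axis) by log2 ratio of (FPKM + 1) for resveratrol in conditioned media over control, in bins of 0.1 for 11858 loci, with the members drawn as vertical lines and loci beyond either end gathered in the outermost bins. Bcl2l11 at 1.85 and Bid at -1.74 stand in the tails, and the other members lie between -0.64 and 0.22.

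In FPKM as deposited, the summed level of the members of each class was lowest with resveratrol. The size of that difference depends on scaling between libraries. After FPKM were rescaled to TPM over all loci, Mcl1 had a log2 ratio of 0.14 for resveratrol over control. The guardian sum may therefore not be lowest with resveratrol under that scaling. The BH3-only sum was 93.6 FPKM in control, 96.7 in conditioned medium and 74.5 after resveratrol, guardians came to 88.0, 91.0 and 76.9, and effectors to 124, 121 and 99.0. The ratio of the BH3-only sum to the guardian sum was 1.06, 1.06 and 0.970, a quantity that does not depend on scaling between libraries. Within the BH3-only sum, Bcl2l11 held 3.61% in control, 7.21% after conditioned medium and 19.9% after resveratrol, whereas Bid held 33.0%, 22.0% and 11.5%. Bad held 33.3%, 30.2% and 35.2%, and Pmaip1 24.8%, 30.0% and 25.5%. Among the guardian members the Mcl1 share was 71.5%, 76.1% and 78.9%, and the Bcl2l1 share 25.8%, 21.8% and 18.8%. All class sums, shares and ratios of sums cover the 10 members only. They leave out the guardian Bcl2l2 (26.4, 25.5 and 21.9 FPKM) and the effector-like Bok (37.6, 16.7 and 7.97 FPKM). The BH3-only gene Bmf (2.75, 5.80 and 4.09 FPKM) is left out as well. Bax held 66.2%, 63.7% and 73.2% of the effector sum, and Bak1 the remainder.

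Ratios of single pairs were taken within each library. The ratio of Bcl2l11 to Mcl1, a guardian that binds BIM, was 0.0538, 0.101 and 0.244, a 4.55-fold range. Bcl2l11 over Bid, a pair added after the values were seen, was 0.109, 0.327 and 1.73. Bax over Bcl2, a pair often quoted for this pathway, was 34.1, 41.1 and 40.1, and rested on a Bcl2 level near 2 FPKM. Bax over Bcl2l1 was 3.61, 3.88 and 5.02, and Bad over Bcl2l1, a pair that bind each other, 1.37, 1.47 and 1.82. Bbc3 over Bcl2l1 was 0.217 in control and 0.511 and 0.407 in the conditioned media libraries, and Pmaip1 over Mcl1 was 0.369, 0.419 and 0.314.

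**Figure D4:**
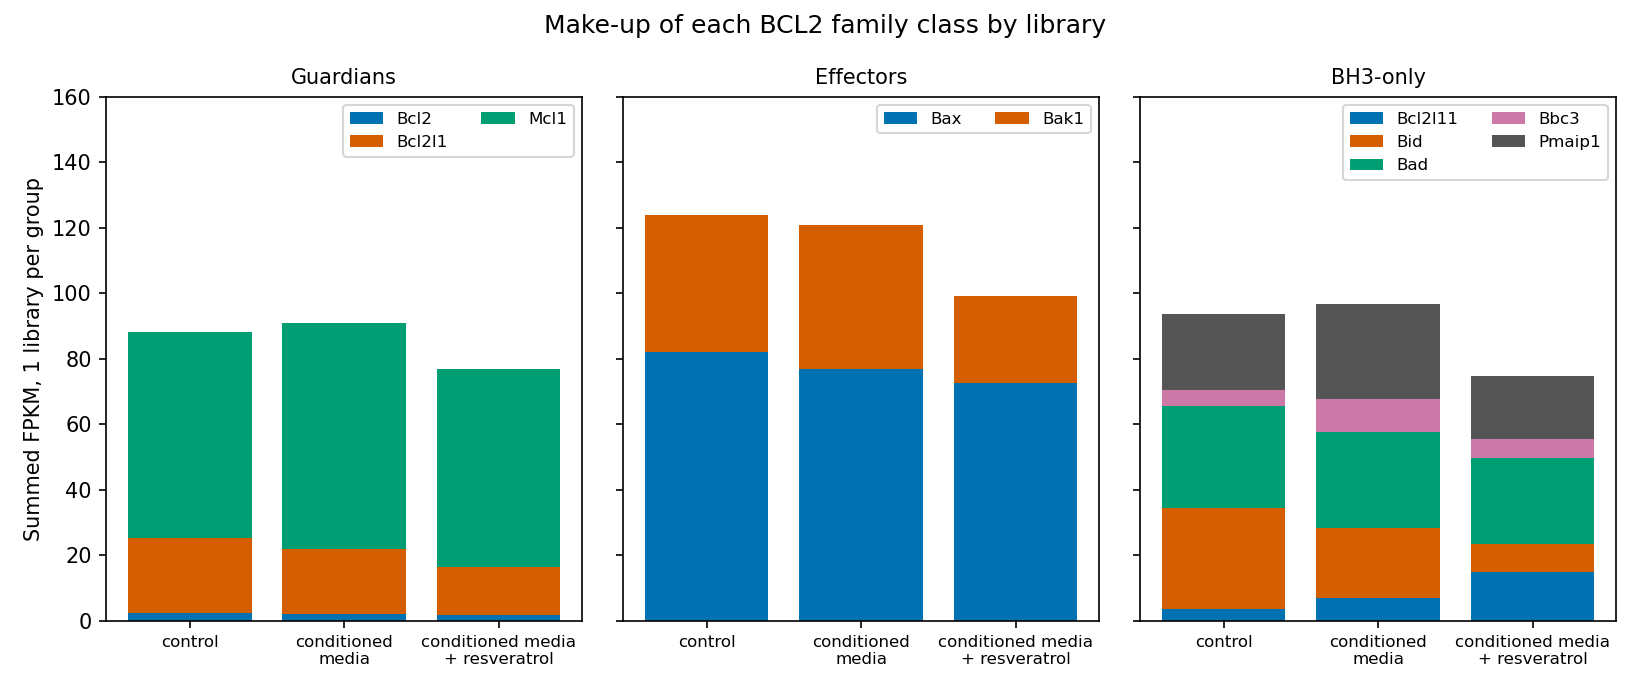
Stacked FPKM of the guardian, effector and BH3-only members in each library (linear axis from 0, 1 library per group). The BH3-only columns reach 93.6, 96.7 and 74.5 FPKM, and in them the Bid segment shrinks from 30.9 to 8.55 FPKM as the Bcl2l11 segment grows from 3.38 to 14.8 FPKM.

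Relatives of the family outside the 10 members were led by Bok. Bok encodes an effector-like protein, and stood at 37.6, 16.7 and 7.97 FPKM. Its log2 ratios were -1.13, -0.98 and -2.11. Of 7 relatives with a mean of 1 FPKM or more, only Bok passed the size rule against control, in both conditioned media libraries. Of all loci, 0.751% were lower against control in conditioned media and 5.25% with resveratrol. Bmf, a BH3-only gene, stood at 2.75, 5.80 and 4.09 FPKM, highest in conditioned media as Bbc3 was. Bnip3, a mitochondrial BH3-like protein of mitophagy and hypoxia, stood at 184, 364 and 291 FPKM. The guardian Bcl2l2 stood at 26.4, 25.5 and 21.9 FPKM, above Bcl2l1 in each library, and Bcl2a1a, Bcl2a1b, Bcl2a1c, Bcl2a1d and Bcl2l10 were listed at 0 in all.

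Downstream of the mitochondria, 0 of 14 release and apoptosome genes and 0 of 7 caspases passed the size rule in any comparison. Of all loci, 1.98% were higher and 0.751% lower in the first comparison, 1.53% and 4.97% in the second, and 3.60% and 5.25% in the last. At such shares, lists this short can hold none. Cycs, cytochrome c, stood at 60.7, 44.5 and 43.5 FPKM, and Vdac1, an outer membrane channel, at 161, 239 and 220 FPKM. Casp8, which cleaves BID, stood at 10.6, 12.0 and 6.50 FPKM, lowest with resveratrol, with a log2 ratio of -0.79 against conditioned media. Casp12 stood at 20.0, 19.1 and 12.0 FPKM and Casp4 at 8.47, 14.4 and 14.7 FPKM.

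Of 8 inhibitors of apoptosis with a mean of 1 FPKM or more, 1 was higher by the size rule in conditioned media against control. With resveratrol, 2 were lower against conditioned media and 1 against control. The counts were the same among 13 death receptor and adaptor genes, beside the shares of all loci given for each comparison. Birc3, a ubiquitin ligase of the TNF receptor complex, stood at 0.304, 2.82 and 0.466 FPKM, high in conditioned media alone. It met the mean filter of 1 FPKM only through that library, since its values in the other libraries lay below 1 FPKM. Birc3 was the inhibitor counted as higher in conditioned media, and 1 of the 2 lower with resveratrol against conditioned media. Birc5, survivin, a mitotic gene as well, stood at 32.3, 37.9 and 9.25 FPKM (log2 ratio -1.92 against conditioned media), and moved with the proliferating cell markers that summed to 63.4 FPKM with resveratrol. The part of those cells in its values was not tested. The death receptor Fas stood at 9.96, 24.1 and 20.9 FPKM. Ripk3 and Mlkl, a kinase and the pore protein of necroptosis, stood at 4.39, 8.07 and 3.42 FPKM and at 30.1, 26.7 and 12.6 FPKM, and both were lowest with resveratrol (log2 ratios of -1.04 and -1.02 against conditioned media). Tnfrsf12a, the TWEAK receptor of atrophying muscle, stood at 206, 111 and 124 FPKM.

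Factors known to drive BH3-only genes differed in their course. Ddit3, which encodes CHOP, a factor of the endoplasmic reticulum stress response, stood at 46.6, 82.3 and 239 FPKM and passed the size rule with resveratrol (log2 ratios of 1.53 against conditioned media and 2.34 against control). Foxo3 stood at 17.4, 31.6 and 27.4 FPKM, Atf3 at 4.09, 11.1 and 8.88 FPKM, and both were highest in conditioned media. Trp53, which encodes p53, stood at 60.5, 52.6 and 33.9 FPKM and Trp63 at 3.54, 2.66 and 1.36 FPKM, both lowest with resveratrol. Among genes for turnover and partners of BCL2 proteins, Ier3, an early response gene whose protein binds MCL1, stood at 189, 221 and 470 FPKM. Huwe1, a ubiquitin ligase for MCL1, stood at 36.8, 27.9 and 19.9 FPKM. Over all 7 lists, 83 of 106 genes had a locus of their own and a mean of 1 FPKM or more. Of these, 3 were higher and 1 lower in conditioned media against control by the size rule, 2 and 4 with resveratrol against conditioned media, and 2 and 3 with resveratrol against control, beside the shares of all loci given for each comparison. Their median log2 ratios were 0.083, -0.064 and 0.026.

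**Figure D5:**
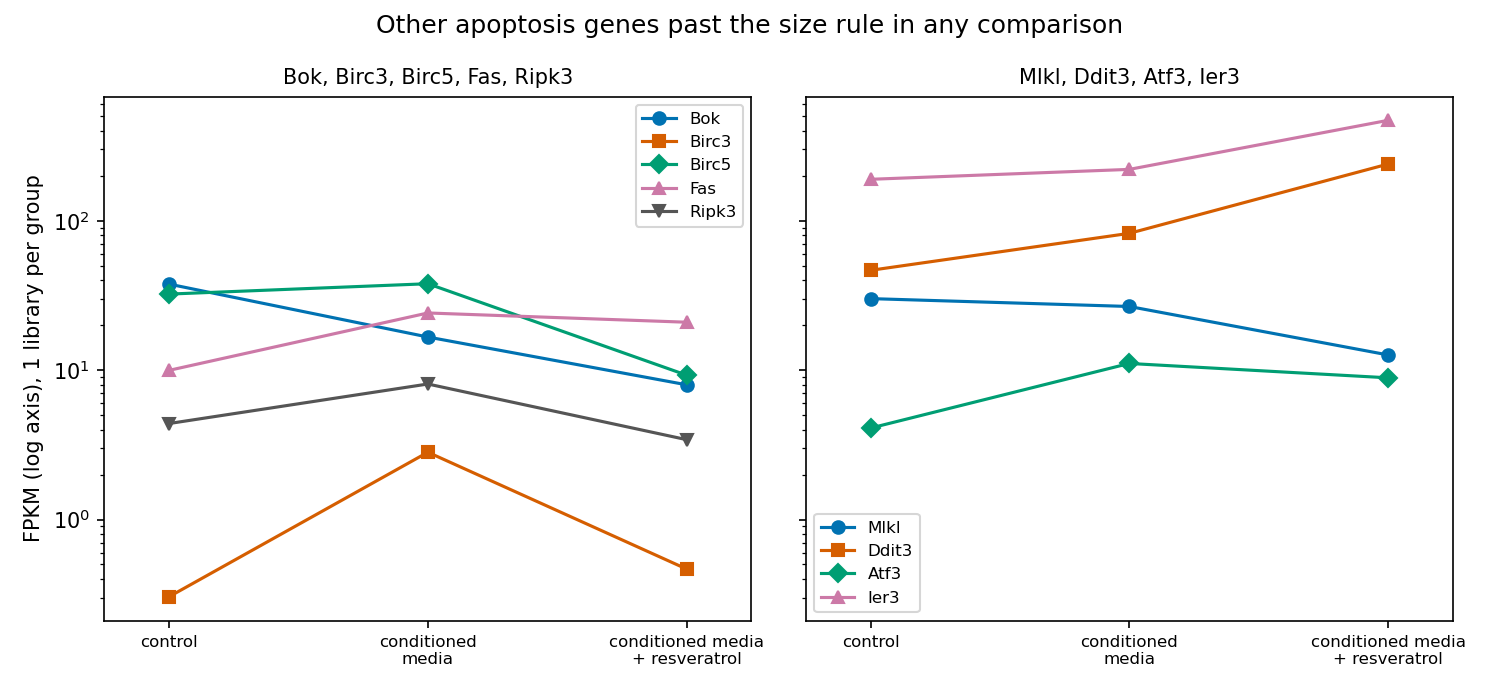
FPKM (log axis) in the 3 libraries of the 9 apoptosis genes outside the 10 members that passed the size rule in any comparison, 1 point per library. Ddit3 and Ier3 are highest with resveratrol at 239 and 470 FPKM, Bok, Birc5 and Mlkl are lowest there, and Birc3, Fas, Ripk3 and Atf3 are highest in conditioned media.

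Bcl2l11 had the widest range of the members on the log2(FPKM + 1) scale, and its pattern was set against the other apoptosis genes by distance in the log2 ratios of the first and the second comparison. The nearest was Ddit3 (distance 0.54), followed by Ier3 (0.65) and Jun (0.81), which stood at 38.5, 51.7 and 64.6 FPKM. All 3 were lowest in control and highest with resveratrol, as Bcl2l11 was. Likeness over 3 libraries is a description of these libraries.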

How the data were processed

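RNA was sequenced from 3 libraries of C2C12 myotubes, grouped by their treatment labels. The submitters' processing notes name the build mm10 and Cuffdiff 2.2.1.3, Cufflinks 2.2.1.0, Bowtie, TopHat2 2.1.0, Trim Galore 0.4.3.1 and FastQC 0.69. Annotation, strand setting and scaling are not given in these sources. FPKM in the deposited table were computed by the authors for 24401 loci. Its log2 fold changes, test statistic (a score), p-values and q-values are the authors' deposited values, and a call says only that single libraries differ. FPKM hold no counts, so depth and counting error are unknown.

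From these, log2((FPKM + 1)/(FPKM + 1)) was computed with Python 3.11.15 and pandas 2.3.3. The size rule was also run on copies of the control library with set fold changes and no noise. The outcome of that run was set by the changes put in. It shows only that the rule was applied as stated, and nothing about error between single libraries. Starts were converted to count from 1. The members, the 7 lists of apoptosis genes and the marker lists were chosen with earlier results of these data known. Named genes are the members, up to 4 per list and comparison by absolute log2 ratio at a mean of 1 FPKM or more, and the 3 nearest to the member of widest range. Genes named outside this rule (the Bcl2a1 genes, Bcl2l10 and genes that share a member's span) were chosen after their values were seen. Of 106 listed genes, 6 lie in loci of several symbols and were not used. Count alternatives varied pseudocount, filter, scaling and fold.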

Additional observations from a re-analysis of the deposited data

How the results depend on the processing

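Of the BCL2 family, Bcl2l11 higher and Bid lower with resveratrol against control held under all 8 alternatives tried for the counts. Several of these could not have undone either call. The filters lie below the means of Bcl2l11 (8.39 FPKM) and Bid (20.3 FPKM), and centring shifted the ratios by 0.0002. A pseudocount of 0.1 and 1.5 fold only loosen the rule. At a pseudocount of 5 the log2 ratios were 1.24 for Bcl2l11 and -1.41 for Bid, so both calls were kept. Both calls were also kept under the rescalings, which moved the median of all loci only to 0.16 and -0.14. Beside ratios of 1.85 and -1.74, such shifts make the rescalings weak checks. At 1.5 fold the count of members grew from 2 to 4 with Bcl2l1 and Bak1. In conditioned media against control, 0 members passed and 2, Bcl2l11 and Bbc3, passed at a pseudocount of 0.1 and again at 1.5 fold. With resveratrol against conditioned media, 1 member passed, against 2 at a pseudocount of 0.1, 0 at a pseudocount of 5, where Bid no longer passed, and 5 at 1.5 fold. The other apoptosis genes past the size rule numbered 4, 6 and 5 in the order of the comparisons. At 1.5 fold these became 11, 12 and 20. A pseudocount of 0.1 gave 8 in the last comparison, a pseudocount of 5 gave 0 in the first and 3 in the second, and rescaling to TPM over all loci gave 3 in the second. By construction, the larger pseudocount shrinks the ratios of low genes, the smaller one enlarges them, and 1.5 fold can only add genes. Rescaling to TPM over all loci left 10283 loci at the mean filter, against 11858, and the cause of its shift was not tested. Over all loci, 235 were higher and 89 lower in the first comparison, 182 and 589 in the second and 427 and 622 in the last. At a pseudocount of 0.1 the first and the second gave 450 and 149, and 299 and 884. A pseudocount of 5 gave 56 and 38, 65 and 178, and 161 and 229, and TPM over all loci 137 and 30, 96 and 268, and 340 and 215. At 1.5 fold they were 881 and 583, 900 and 1500, and 1351 and 1663. No paired analysis was possible because each group holds 1 library, and for the same reason no replicate could be left out. Within-library ratios were identical when loci of a symbol were summed, since each member has 1 locus. Without read counts, no difference among low genes such as Bcl2 can be given a precision.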
